A study of Mus musculus with 15 samples.

Results

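Primary mouse alveolar type II (ATII) cells were compared with primary mouse lung fibroblasts on the arrays that received vehicle. All 4 arrays titled as vehicle-treated ATII cells and all 4 titled as vehicle-treated lung fibroblasts were taken, which are 8 of the 15 arrays of the series, with every probe that is not a control. The vehicle was phosphate-buffered saline, given for 24 h. The other 7 arrays, of the same cells with 1 mM β-aminopropionitrile (BAPN, an inhibitor of lysyl oxidases), entered only the estimate of the spread and the repeat of the comparison at the end. The fibroblasts were used after 3 or more passages and were starved during the 24 h that preceded vehicle. The ATII cells had grown to a closed layer over 3 days with air above them, so every difference described here is one between cell types and between culture conditions, which cannot be told apart. Strain, sex and age are not in the labels, nor is the number of animals behind the replicates, so a p-value speaks only of the spread among these samples, and that spread may be technical.

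ATII cells make surfactant, keep the alveolar surface dry by ion transport and are the progenitors of the flat alveolar type I cells. In culture they are known to lose surfactant transcripts and to spread. Lung fibroblasts lay down the interstitial matrix and send growth factors to the epithelium, and in passage on plastic they are known to turn contractile. The comparison therefore describes 2 cultures that in the lung face each other across a basement membrane.

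A level is the log2 processed intensity of a probe minus the array's 75th percentile, so that 0 is that percentile. Differences are ATII minus fibroblast on this log2 scale. Values for single arrays are given in the order of replicates 1 to 4, with ATII cells first. Of 46287 features (genes, or probes without a name), 32470 were well above background on at least 3 of the 8 arrays and were tested. Of these, 10173 passed an adjusted p of 0.05 (31.3% of those tested), 4696 of them higher in ATII cells (14.5%) and 5477 lower (16.9%). The balance depended on the scaling and the block, with 5012 higher and 4929 lower after quantile scaling and 4083 and 5758 with the replicate block. The fitted differences of 1834 features that were higher and 2615 that were lower reached 2-fold. At 10-fold the counts were 369 higher and 195 lower, and at 100-fold 46 higher and 9 lower. The median over all tested features was −0.13, and quantile scaling moved it by 0.11 to −0.02, so differences of that size depend on the scaling. The 95% interval of the difference lay inside 2-fold for 18753 features (57.8%). The 2 groups did not overlap for 11244 tested features (34.6%). Counts of list members are to be read against these shares. A gene above background in one culture alone could be tested only because it was high there, so the counts of tested members include genes that had to differ. The p-values of such genes add no support of their own. Between 65.3% and 71.0% of an array's spots stood well above background (68.1 ± 0.91% in ATII cells, 67.9 ± 3% in fibroblasts, SD, n = 4; exact two-sided permutation test, p = 0.886, smallest possible 0.0286). Each group had 2 arrays on each of 2 slides. With the slide as a block 10253 features passed, and within slide 1 and slide 2 alone, with 2 arrays against 2, 6923 and 5122 did. All 4 fibroblast arrays and ATII replicate 1 lay in the upper row of the slides, and the other 3 ATII arrays in the lower row. The alternative of the upper row kept the 4 fibroblast arrays, ATII replicate 1 and all BAPN arrays whatever their row. With 1 ATII vehicle array its spread came from the other groups, so only differences are given for it. Their median over all tested features was −0.07.

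The labelled cell types were checked against their markers. Cdh1, which encodes E-cadherin of epithelial junctions, had levels of 4.87, 4.34, 4.31 and 3.99 in ATII cells and of −6.95, −7.14, −7.14 and −6.98 in fibroblasts. It was well above background on all 4 ATII arrays and on no fibroblast array. Epcam, another epithelial adhesion gene, had levels of 3.74, 3.03, 3.09 and 3.06 in ATII cells and −6.92, −6.35, −7.28 and −4.52 in fibroblasts. Fibroblast replicate 4 was the one fibroblast array on which Epcam stood above background. Sftpc, which encodes surfactant protein C and defines ATII cells, was at 1.28, 0.77, 1.99 and 0.60 against −6.98, −5.88, −6.52 and −7.05. No fibroblast array showed Sftpc above background, and ATII cells held at least 78.2-fold more (adjusted p = 4.32e-08). Since Sftpc could be tested only through its ATII arrays, this p-value adds no support. Fgf10, the growth factor by which lung mesenchyme calls out epithelial buds, ran the other way, at −5.03, −4.23, −5.97 and −5.34 against −0.53, 1.02, 0.28 and −0.46. On ATII replicates 3 and 4 Fgf10 was not well above background. The groups did not overlap, and the fitted level was 37.3-fold lower in ATII cells (−5.22 ± 0.44, SE; adjusted p = 9.29e-07). All 4 markers thus followed the labels on every array.

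**Figure D1:**
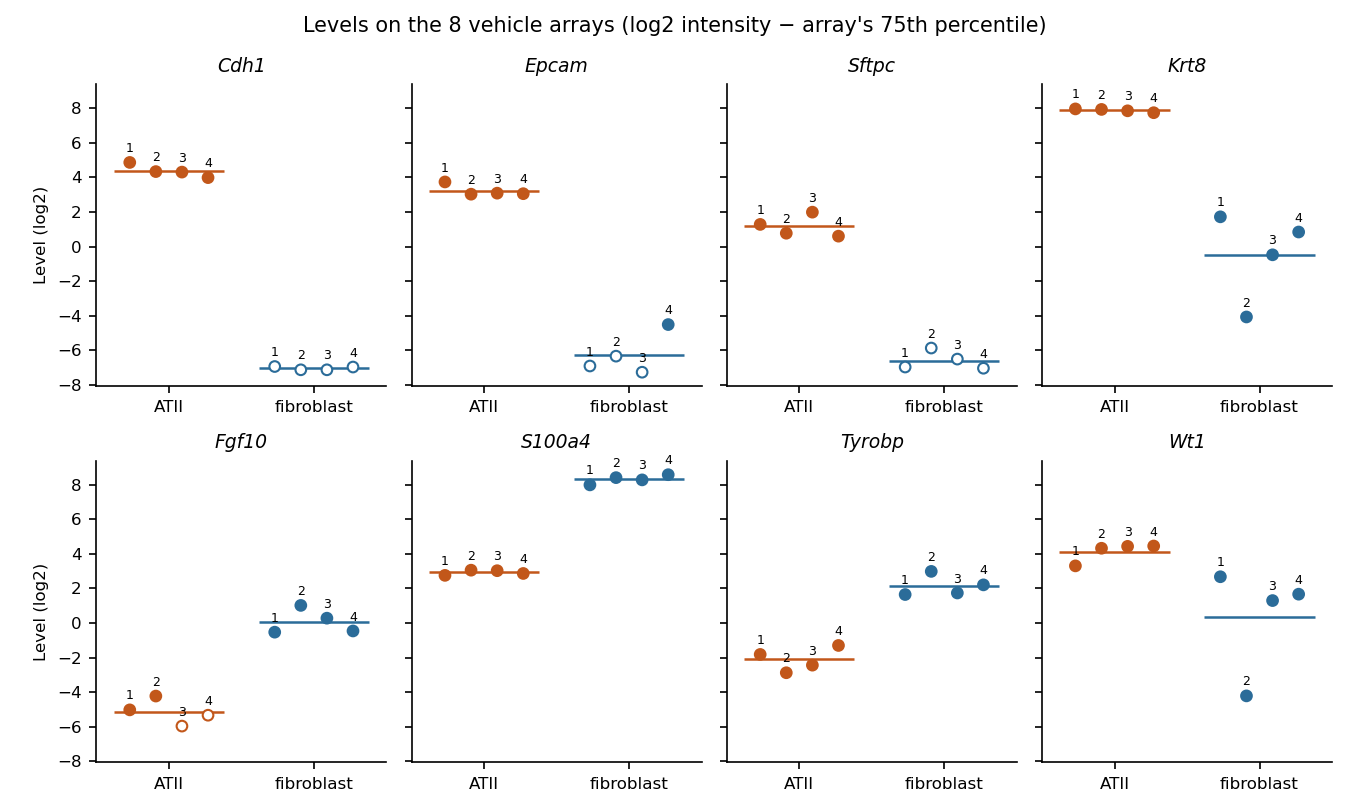
Level (log2 processed intensity relative to the array's 75th percentile) on each of the 8 vehicle arrays for 8 genes, 1 panel a gene. Points are single arrays, the number is the replicate, open points were not well above background, and bars are group means. Cdh1, Epcam and Sftpc are high in all 4 ATII arrays, Fgf10 in all 4 fibroblast arrays, and Wt1 and Krt8 are far lower on fibroblast replicate 2 than on the other 3 fibroblast arrays.

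Markers of other cells were present in both cultures. Mesothelial cells, which line the surface of the lung, are known for Wt1, Msln, Upk3b, Bnc1 and Lrrn4 together with simple keratins. Wt1, a transcription factor gene of that lineage, was at 3.31, 4.33, 4.44 and 4.46 in ATII cells and at 2.68, −4.22, 1.30 and 1.67 in fibroblasts. Fibroblast replicate 2 was thus 68.5-fold below the mean of the other 3 fibroblast arrays. Bnc1 was at 0.09, −7.43, −1.88 and −0.76 in fibroblasts and Lrrn4 at −0.08, −7.34, −1.80 and −0.58, and neither was well above background on replicate 2. In ATII cells Bnc1 was at −0.33, 0.29, 0.66 and 0.59 and Lrrn4 at −1.41, −0.69, −0.80 and −0.57. Upk3b was at −1.51, −1.07, −0.50 and −1.32 in ATII cells and 1.60, −4.34, −0.69 and 1.51 in fibroblasts. Msln, the gene of mesothelin, was at 7.24, 6.70, 6.58 and 6.36 in ATII cells and 2.78, −1.41, 1.29 and 2.05 in fibroblasts. Of 9 tested mesothelial markers, Msln, Rspo1 and Krt19 passed as higher in ATII cells and none as lower, and Calb2 was not tested. Wt1 did not pass (3.78 ± 1.49, SE; adjusted p = 0.0724), though it did without fibroblast replicate 1 (4.55, adjusted p = 0.0465) and with normexp background correction (3.41, adjusted p = 0.03). The median difference of the list was 2.80, and it was 1.16 without fibroblast replicate 2, when again 3 members passed. Without that array the members that did not pass differed by −1.91 (Upk3b), −0.05 (Lrrn4), 0.16 (Upk1b), 0.60 (Gpm6a), 1.16 (Bnc1) and 2.26 (Wt1). The fibroblast BAPN array of replicate number 2 was low too, with Wt1 at −3.82 against 3.24 and 1.84 on the other 2. The summed level of the 9 markers ran from 7.51 to 8.29 in ATII cells and from 2.08 to 4.83 in fibroblasts. On ATII replicate 1, where the sum was highest, Msln was at 7.24 and Krt19 at 7.15, while Wt1 had its lowest ATII level. Since levels of different genes are not comparable, a summed level follows its brightest probes and does not measure the share of a cell type. Tbx20, chosen after its values were seen, was at 0.34, −4.70, −2.38 and 1.71 in fibroblasts and not well above background on any ATII array. Counted over all tested features, 157 lay more than 4-fold from every other array of the group on fibroblast replicate 2, and 124 on ATII replicate 3, against 15 to 87 on each of the other 6 arrays.

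Macrophage transcripts marked the fibroblast cultures. Of 18 tested macrophage markers 16 were lower in ATII cells, Cd14 was higher and Siglecf did not pass. C1qa, a complement gene of tissue macrophages, was at 0.36, 1.72, −0.18 and 0.85 in fibroblasts and above background on 1 ATII array. Tyrobp, the adaptor of myeloid receptors, was at −1.82, −2.88, −2.44 and −1.30 in ATII cells against 1.65, 2.99, 1.74 and 2.21. It was above background on all 8 arrays, and the groups did not overlap. Trem2 was 26.3-fold lower (−4.72 ± 0.42, SE; adjusted p = 1.67e-06), Mrc1 11.2-fold, Mpeg1 9.22-fold and Adgre1 3.46-fold. The summed level of the 25 tested leukocyte markers ran from 5.25 to 5.85 in ATII cells and from 6.53 to 6.88 in fibroblasts. Of 10 tested endothelial markers Esam (25.6-fold), Ramp2 (2.36-fold) and Egfl7 (1.66-fold) were higher in ATII cultures and none lower, though 1 was lower without fibroblast replicate 3. Pecam1, Plvap, Vwf and Sox17 did not pass, Tek, Emcn and Tie1 were not tested for lack of signal, and the summed level ran from 4.03 to 4.48 against 3.74 to 4.05. The part of mesothelial and macrophage RNA in the differences between the cultures was not tested. In bulk RNA, fewer cells of a type and less RNA per cell cannot be told apart.

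**Figure D2:**
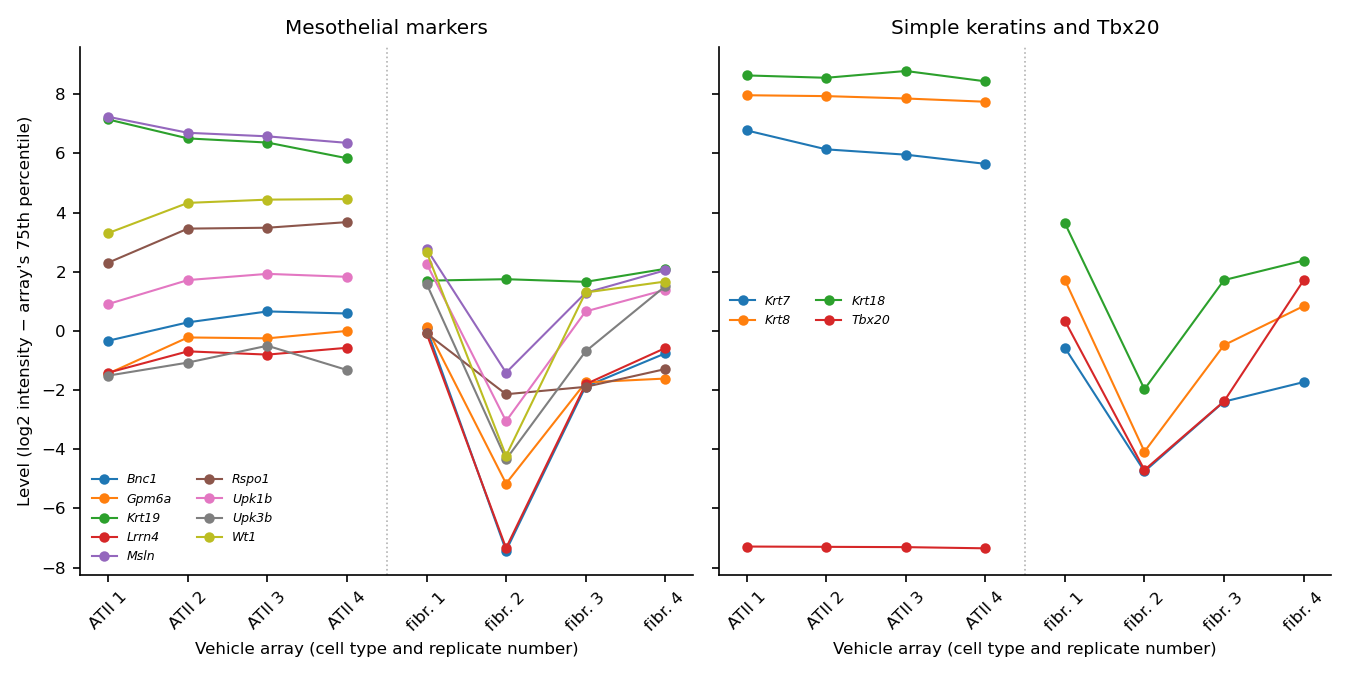
Level of 9 mesothelial markers (left) and of Krt7, Krt8, Krt18 and Tbx20 (right) on the 8 vehicle arrays, as log2 processed intensity relative to the array's 75th percentile. Each point is an array, and lines only join the points of a gene. Fibroblast replicate 2 lies below the other 3 fibroblast arrays for all genes drawn except Krt19, and the 4 ATII arrays lie close together.

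The surfactant genes fell into 2 sets. Surfactant is a lipid and protein film that ATII cells store in lamellar bodies. Sftpc and Sftpb, which encode its hydrophobic proteins, were above background in ATII cells only, on the probe that stood for each gene. Sftpb was at −1.78, −1.88, −0.92 and −1.70 against −6.45, −7.13, −6.51 and −6.29, at least 11.8-fold higher. Sftpd, the gene of a surfactant lectin, was 4.44-fold higher (2.15 ± 0.46, SE; adjusted p = 0.00246). The size depended on the probe, since the other probe of Sftpd differed by 7.63 and that of Sftpb by 1.25. Sftpa1, the phosphate transporter gene Slc34a2 and the chemokine gene Cxcl15, all abundant in fresh ATII cells, were not well above background on enough arrays of either culture to be tested. Abca3, the lipid pump of the lamellar body, was at 2.80, 2.73, 2.67 and 2.55 in ATII cells and 2.67, 2.42, 2.28 and 3.00 in fibroblasts. These values overlapped, with a difference of 0.10 ± 0.18 (SE; adjusted p = 0.741). Among lipid synthesis genes, Scd1 (3.19-fold), Acly (1.98-fold) and Fasn (1.52-fold) were higher. The aspartyl protease gene Napsa, which processes surfactant proteins, was 3.87-fold higher and Lamp3 1.56-fold. The lysozyme genes Lyz2 and Lyz1, expressed by ATII cells and macrophages, were 18.4-fold and 9.93-fold lower. In all, 10 of 24 tested members were higher, 5 lower and 9 did not pass. The median was 0.47, and 2 of the members passed the filter through ATII cells alone.

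Type I, airway and mucosal genes were also found in the ATII cultures. Ager, the receptor gene that marks type I cells, was at 0.27, −0.30, 0.28 and −1.66 against −4.61, −4.78, −5.01 and −5.17 (23.3-fold higher, adjusted p = 1.5e-05). Aqp5, a water channel gene, was 27.5-fold higher, and Clic5 8.17-fold. Other type I genes went the other way or did not pass. The caveolin genes Cav1 and Cav2 were 3.45-fold and 1.45-fold lower, Igfbp2 was 93-fold lower, and Pdpn differed by −0.14 ± 0.17 (SE; adjusted p = 0.605). Of 16 tested type I genes 8 were higher, 4 lower and 4 did not pass, with a median of 1.22.

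Airway genes were read from the same arrays. Scgb1a1, the club cell secretoglobin, was at 3.02, 1.60, 1.59 and 0.67 in ATII cells and −2.11, −2.82, −1.96 and −2.80 in fibroblasts (17.6-fold higher, adjusted p = 5.85e-05). Foxj1, the master regulator of motile cilia, was at 0.62, −0.42, −0.62 and −1.42 against −6.32, −6.56, −6.01 and −7.09, which was at least 25.5-fold higher. ATII replicate 1 was the highest array for both genes. The basal cell gene Krt5 did not pass, and 5 of 10 tested airway genes were higher and none lower, with a median of 1.11. With the replicate block 2 were lower, and without ATII replicate 1 or 3 or fibroblast replicate 2 it was 1. Muc4, a membrane mucin gene, was at least 88-fold higher and Muc16 14-fold, while the gel-forming Muc5ac differed by −0.00 ± 0.37 (SE) and did not pass. The other probe of Muc4 differed by 0.44. The antimicrobial secretion gene Bpifa1 was at least 5.01-fold higher and the protease inhibitor gene Slpi 5.82-fold. Over mucins and mucosal secretions 10 of 19 tested genes were higher and 2 lower, with a median of 1.72. For apical transport, the sodium channel subunits Scnn1a and Scnn1b were 26.9-fold and at least 3.3-fold higher, the chloride transporter gene Slc26a9 at least 27-fold and the chloride channel gene Ano1 17.6-fold. Cftr and Scnn1g were not tested for lack of signal, and Aqp1 was 6.41-fold lower. Of 14 tested transport genes 8 were higher and 1 lower, with a median of 0.63.

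Transcription factor genes of lung epithelium were higher, while those of mesenchyme were present in both cultures. Nkx2-1, the factor that specifies lung, was at −1.35, −1.54, −1.37 and −1.55 in ATII cells and −6.92, −7.34, −7.38 and −7.03 in fibroblasts. Sox2, known from the airway part of the epithelium, was at −0.71, −0.92, −1.37 and −1.26 against −6.94, −7.38, −7.44 and −7.05. No fibroblast array showed either gene above background. The bounds were at least 12.8-fold for Nkx2-1 and at least 16.7-fold for Sox2, both higher in ATII cells. Irx2 was 116-fold higher, Foxa2 62.3-fold, Irx1 22.4-fold and Irx3 21.8-fold. Among general epithelial factors, Grhl2 was 60.4-fold higher, Elf3 at least 15.1-fold, and the splicing factor genes Esrp1 and Esrp2 5.44-fold and 1.89-fold. Klf4 was 3.82-fold lower, and Foxp2 and Id2 were lower as well. Etv5, known to maintain ATII cells, differed by 0.16 ± 0.15 (SE; adjusted p = 0.491). Of 36 tested factors 22 were higher and 3 lower, with a median of 1.81. Of the tested factors 7 were above background in ATII cells alone, and with these at their bound the median was 1.58.

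The repressors of the epithelial programme were mostly lower, the Zeb and Snail genes by little. Of 8 tested factors listed for the epithelial-mesenchymal transition, 7 were lower and none higher, with a median of −0.66. Over all tested features 16.9% were lower. Zeb1 was at 2.46, 2.76, 2.63 and 2.93 in ATII cells and 3.18, 3.54, 3.12 and 3.31 in fibroblasts. The difference of −0.59 ± 0.13 (SE; adjusted p = 0.00299) made it 1.51-fold lower. Zeb2 was 1.5-fold lower but did not pass with the mean over its probes (−0.19), Snai1 was 1.56-fold lower and Twist1 1.61-fold. Snai2 differed by −0.06 ± 0.23 (SE; adjusted p = 0.876). Larger falls were found in Prrx1 (8.88-fold), Prrx2 (7.78-fold), Osr1 (5.6-fold) and Tcf21 (5.18-fold), factors of lung and limb mesenchyme. Meox1 (32.8-fold), Heyl (22.2-fold) and the tendon factor gene Scx (12.1-fold) were higher in ATII cultures. In all, 15 of 28 tested mesenchymal factors were lower, 6 higher and 7 did not pass, with a median of −0.61. Of the Hox genes, which keep the positional code of mesenchyme, 24 of 39 were tested. Of these 6 were higher, among them Hoxc4 (3.35-fold), and 5 lower, led by Hoxb6 (2.28-fold) and Hoxb5 (2.03-fold), with a median of −0.19.

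Simple and stress keratins were among the largest differences. Keratins pair into the intermediate filaments of epithelial cells. Krt8 was at 7.97, 7.94, 7.86 and 7.75 in ATII cells and at 1.72, −4.08, −0.48 and 0.84 in fibroblasts. Its partner Krt18 was at 8.64, 8.56, 8.79 and 8.44 against 3.64, −1.97, 1.72 and 2.38. The ATII arrays lay close together for both genes, while the fibroblast arrays were widely spread, with replicate 2 the lowest and replicate 1 the highest. Krt8 was 333-fold higher (8.38 ± 1.14, SE; adjusted p = 7.88e-05), with a difference of 7.19 without fibroblast replicate 2. Krt18 was 143-fold higher (7.16 ± 1.09, SE), with 6.03 without that array. Krt17, a keratin of injured epithelium, was 386-fold higher and above background on 2 fibroblast arrays. Krt7 was 360.5-fold higher, Krt19 25.4-fold, Krt23 at least 19.6-fold and Krt6a at least 7.73-fold. Krt5 and Krt6b did not pass. Of 17 tested keratins 14 were higher and none lower, with a median of 2.35.

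Junction genes followed. Tight junction strands of claudins and occludin seal the epithelium, and desmosomes tie the keratin filaments of neighbours together. Cldn4, known to rise in injured alveoli, was at 4.40, 3.63, 3.56 and 2.89 against −2.07, −1.21, −1.35 and −0.45. The groups did not overlap, and the level was 29.7-fold higher (4.89 ± 0.37, SE; adjusted p = 3.43e-07). Cldn3 was 137-fold higher, Cldn7 73.1-fold, Cldn6 55.2-fold and Cldn18, the main claudin of the alveolus, at least 6.5-fold. The other probe of Cldn7 differed by −0.84. Cldn15 was 6.83-fold lower. The tricellular junction gene Lsr was at 5.52, 4.90, 4.86 and 4.44 against −2.05, −2.96, −3.12 and −3.03, 211-fold higher. Ocln was at least 31-fold and Marveld2 at least 30.1-fold higher, and the scaffold gene Cgn 98.6-fold. Of the polarity and membrane protease genes, Ap1m2 was at least 37.1-fold higher, Rab25 67.5-fold, St14 74.9-fold and its inhibitor gene Spint1 26.7-fold. In this list 27 of 37 tested genes were higher and 1 lower, with a median of 2.32. Among adherens junction and desmosome genes, Nectin4 was at least 33.5-fold higher, the desmoplakin gene Dsp 70.6-fold and Evpl 17.7-fold. The mesenchymal cadherin gene Cdh2 was 2.8-fold lower, while Cdh11, also known from mesenchyme, was 2.44-fold higher. Of 24 tested genes of that list 18 were higher and 2 lower, with a median of 1.93.

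Zeb and Snail factors bind an E-box, CACCTG on either strand (CAGGTG when read on the other), and are known to repress junction genes. These letters were looked for in the 250 bases before the RefSeq starts (GRCm38.p6). Of all 27025 genes with a window 19.4% held the motif. A window was at hand for 27 of the 45 junction and polarity genes that were higher, of which 14 held it, and for 9 of the 14 higher keratins, of which 6 did. With windows for under 80% of either list, a comparison of the lists' shares with that of all genes is void. Genes with several starts counted once if any window held it. The windows of Epcam (chr17:87635729-87635978, plus strand), Cldn4 (chr5:134946935-134947184, minus strand), Lsr (chr7:30973470-30973719, minus strand) and Krt7 (chr15:101412153-101412402, plus strand) are printed as examples of windows that hold the motif, chosen after the matches were seen. Each is read 5′ to 3′ on the gene's strand up to its start, with the motif in capitals.
Epcam: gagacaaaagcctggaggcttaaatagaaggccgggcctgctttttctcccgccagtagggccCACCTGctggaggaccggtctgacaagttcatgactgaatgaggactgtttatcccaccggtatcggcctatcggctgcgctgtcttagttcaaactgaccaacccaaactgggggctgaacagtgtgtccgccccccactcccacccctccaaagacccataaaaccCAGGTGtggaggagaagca
Cldn4: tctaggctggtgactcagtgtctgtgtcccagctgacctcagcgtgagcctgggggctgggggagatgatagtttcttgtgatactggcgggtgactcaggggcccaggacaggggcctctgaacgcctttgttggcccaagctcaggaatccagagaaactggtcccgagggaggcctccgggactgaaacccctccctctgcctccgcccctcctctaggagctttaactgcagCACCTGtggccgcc
Lsr: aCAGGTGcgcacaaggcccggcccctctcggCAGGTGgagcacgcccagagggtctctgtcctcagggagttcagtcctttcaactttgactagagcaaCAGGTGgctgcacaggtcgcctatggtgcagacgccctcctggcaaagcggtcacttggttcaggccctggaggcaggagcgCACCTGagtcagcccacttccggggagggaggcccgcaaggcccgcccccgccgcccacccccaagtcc
Krt7: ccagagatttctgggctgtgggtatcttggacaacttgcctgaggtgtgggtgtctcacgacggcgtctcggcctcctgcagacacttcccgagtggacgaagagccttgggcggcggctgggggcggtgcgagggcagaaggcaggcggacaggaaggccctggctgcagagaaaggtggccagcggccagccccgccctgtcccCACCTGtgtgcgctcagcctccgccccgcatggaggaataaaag
Epcam held the motif 187 and 19 bases before its start, Cldn4 14 bases before it, Krt7 44 bases before it and Lsr at 4 places. The matches are a description of these letters. The windows of Cldn3, Cgn and Dsp, which were 137-fold, 98.6-fold and 70.6-fold higher, held none.

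**Figure D3:**
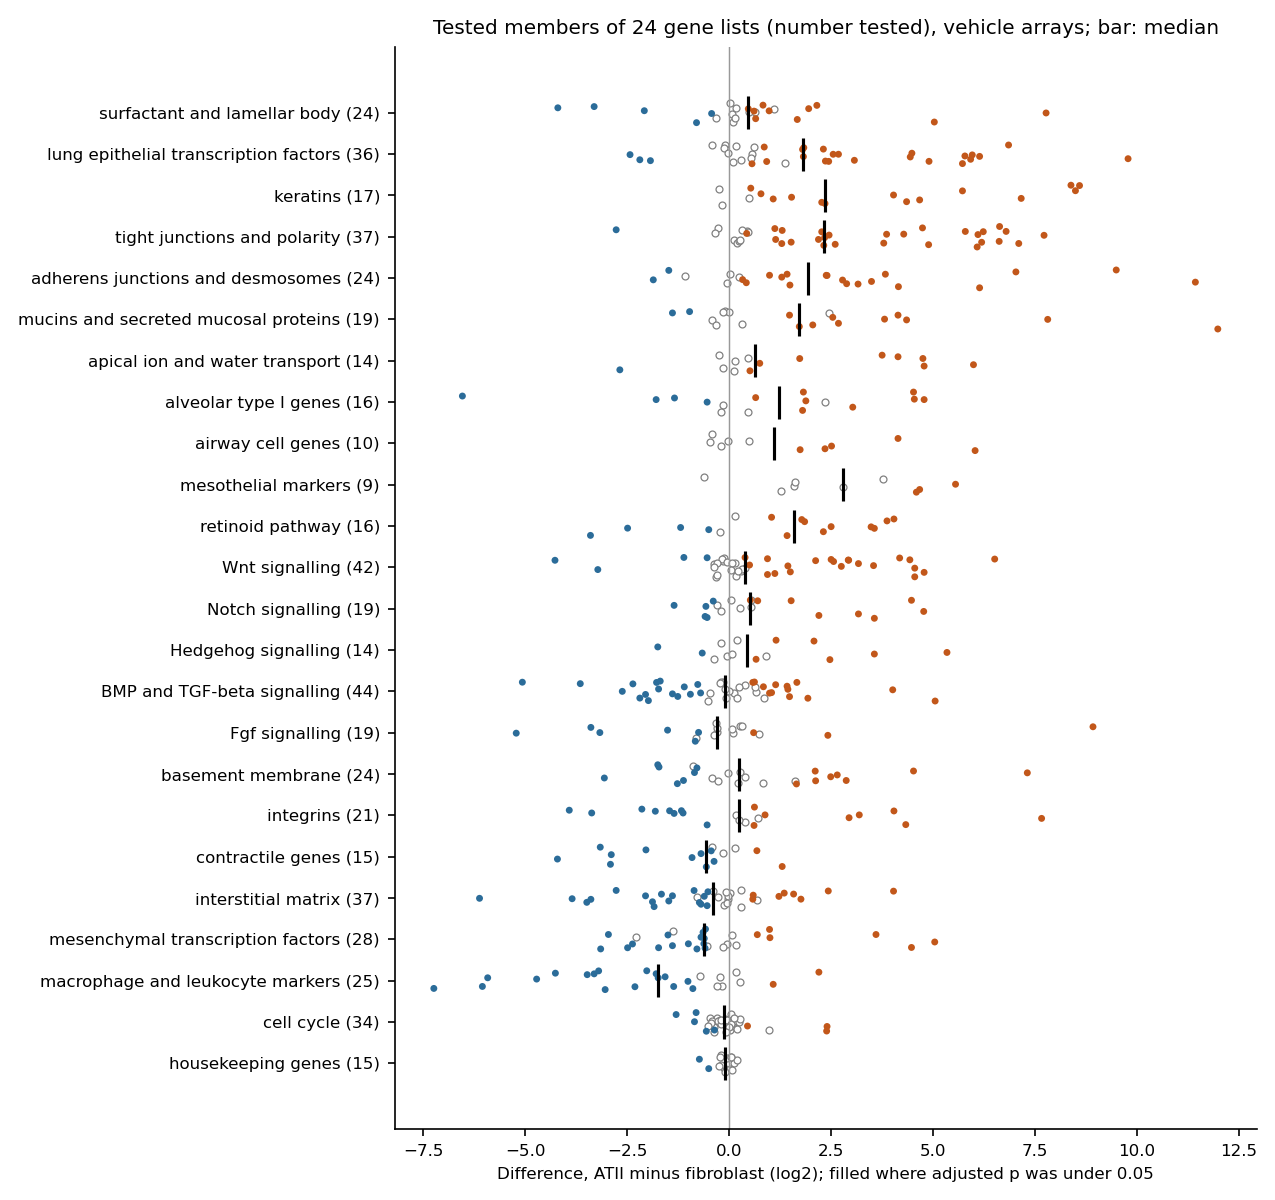
Difference (ATII minus fibroblast, log2) of each tested member of 24 gene lists. Each point is a gene, filled where it passed an adjusted p of 0.05, and the bar is the list's median. The keratin and junction lists lie mostly to the right, the macrophage list to the left, and the cell cycle and housekeeping lists near 0.

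Growth factors of lung mesenchyme were lower and several epithelial ligands higher. Fgf7 and Fgf10 act on the epithelial form of Fgfr2. Fgf7 was at 1.14, 1.46, 0.45 and 1.01 in ATII cells and 4.24, 4.73, 4.51 and 4.16 in fibroblasts. The groups did not overlap, and Fgf7 was 10.5-fold lower (−3.39 ± 0.22, SE; adjusted p = 8.57e-08). Fgf9 was 9-fold lower and Fgf2 did not pass. Fgf21, an endocrine member of the family, was at least 142-fold higher and Fgf1 5.36-fold. The other probe of Fgf1 differed by −0.12. Of the receptors, Fgfr2 was 1.78-fold lower and the other 4 tested did not pass. The feedback inhibitors Spry2 and Spry1 were 2.85-fold and 1.68-fold lower, while Dusp6 was 1.51-fold higher. Of 19 tested Fgf genes 3 were higher and 6 lower, with a median of −0.31. In the EGF family, Nrg1 was 7.98-fold higher and Hbegf 4.32-fold, and Ereg was 8.21-fold lower. Its receptor gene Egfr was 1.62-fold higher. Of 15 tested members 5 were higher and 2 lower, with a median of 0.19.

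Most tested Wnt ligands were higher in ATII cultures, and several secreted antagonists lower. Wnt proteins bind Frizzled receptors and stabilise β-catenin, and Lgr receptors with Rspo1 heighten the response. Wnt7b, an epithelial ligand of the lung, was at 1.00, 0.21, 0.52 and 0.05 against −3.12, −4.65, −2.85 and −4.32. The ligand Wnt11 was at 3.51, 2.87, 2.92 and 2.53 against −1.77, −1.27, −1.23 and −2.10. Neither gene overlapped between the groups, and they were 18.1-fold and 23.4-fold higher. Wnt10a was 23.5-fold higher, Wnt7a 21.6-fold and Wnt4 7.57-fold. In all, 9 of 13 tested ligands were higher and none lower. Among receptors, Lgr5 was at least 22.6-fold higher, Lgr6 27.4-fold and Fzd6 5.66-fold, and 10 of 15 did not pass, among them Lrp5 and Lrp6. The transducers Lef1 (5.92-fold) and Tcf7 (11.6-fold) and the feedback gene Rnf43 (9-fold) were higher. Frzb was 19.3-fold lower, Sfrp1 9.3-fold and Dkk3 2.16-fold, while Sfrp4 was 2.72-fold higher. Over the pathway 21 of 42 tested genes were higher and 4 lower, with a median of 0.39.

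Of 14 tested Hedgehog genes 6 were higher in ATII cultures and 2 lower, with 1 of 3 ligands, 3 of 7 receptors and inhibitors and 2 of 4 effectors among the higher. Shh is the ligand that lung epithelium sends to mesenchyme, where Gli1 and Hhip are known targets. Shh was at −1.57, −1.97, −1.42 and −2.11 against −6.91, −7.24, −7.37 and −6.92, above background in ATII cells only and at least 10.3-fold higher. Gli1 was at −3.58, −2.31, −2.85 and −2.21 in ATII cells and −5.16, −3.66, −6.55 and −5.44 in fibroblasts. It was above background on all 4 ATII arrays and on 1 fibroblast array, and was 5.52-fold higher (2.47 ± 0.51, SE; adjusted p = 0.00216). With the mean over its probes Gli1 did not pass (0.90, adjusted p = 0.084). Hhip was 11.8-fold higher, and the co-receptor genes Gas1 and Cdon 4.22-fold and 2.22-fold. The probes of Gas1 ran from −0.09 to 2.08. The mesenchymal target Foxl1 was 3.35-fold lower. Smo and Ptch1 did not pass (0.07 and −0.05), but with the mean over their probes both passed, Smo as lower (−0.39) and Ptch1 as higher (0.52). Without ATII replicate 1 or 3 or fibroblast replicate 1 the lower genes numbered 1. The median was 0.43, and 0.01 among genes above background on all 8 arrays.

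BMP ligands differed by member and BMP targets were lower. Bmp7 was at least 13.8-fold and Bmp5 16.1-fold higher. Bmp4 was at 0.32, 0.65, 0.78 and 0.60 in ATII cells and 3.45, 3.46, 2.58 and 3.31 in fibroblasts, 6.14-fold lower (−2.62 ± 0.19, SE; adjusted p = 2.46e-07). Gdf10 was above background on the fibroblast arrays only, at −4.10, 1.16, −2.63 and −3.33. Fibroblast replicate 2 was the highest, and Gdf10 was at least 10.5-fold lower in ATII cells. Id genes, the immediate targets of BMP receptors, were lower in all 4 cases, namely Id4 (12.6-fold), Id2 (4.56-fold), Id3 (2.4-fold) and Id1 (2.15-fold). The inhibitory Smad6 was 3.44-fold lower, and the antagonist genes Grem1 and Fst 3.23-fold and 1.93-fold. On the TGF-β side, Tgfb1 was 2.8-fold and Tgfb2 3.17-fold higher, Tgfb3 1.7-fold lower, and the receptor gene Tgfbr2 2.72-fold higher. The target Tgfbi was 3.81-fold higher. Over the family 13 of 44 tested genes were higher and 16 lower, with a median of −0.09, a value whose size depends on the scaling.

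Of 7 tested genes listed as Notch ligands, Jag1, Jag2 and Dll1 were higher in ATII cultures and Dlk1 and Dlk2 lower. Of 8 tested Notch targets 5 were higher and 1 lower. Cells bearing Jagged ligands activate Notch receptors on neighbours, which switch on Hey, Hes and Nrarp genes. Jag1 was at 3.98, 4.10, 4.12 and 4.10 against 0.89, 0.15, 0.53 and 0.51 and 11.8-fold higher (adjusted p = 1.36e-09). Jag2 was at least 2.03-fold and Dll1 4.61-fold higher, while Dlk1 and Dlk2, of the Delta-like family, were 2.54-fold and 1.31-fold lower. The other probe of Dll1 differed by −0.22. Dlk2 did not pass without ATII replicate 2 or 4 or fibroblast replicate 1 (−0.39 to −0.35). Nrarp was at least 7.08-fold higher, and Hey1 2.86-fold. The receptor gene Notch3 was 1.5-fold lower. Of 19 tested genes 8 were higher and 5 lower, or 3 lower without ATII replicate 2 or 4 or fibroblast replicate 1. The median was 0.52, and −0.12 among genes above background on all 8 arrays.

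PDGF ligands stood on the ATII side and their receptors on the fibroblast side. Pdgfb was at 5.62, 5.02, 5.07 and 4.52 in ATII cells and −1.66, −1.74, −1.54 and −1.84 in fibroblasts. All 4 ATII arrays were far above all 4 fibroblast arrays, and the level was 108-fold higher (6.75 ± 0.24, SE; adjusted p = 3.88e-10). Pdgfc was 8.27-fold and Pdgfa 2.59-fold higher. Pdgfra and Pdgfrb were 3.16-fold and 1.8-fold lower. Vegfd, a lymphatic growth factor gene, was at −2.17, −1.60, −1.98 and −1.67 against 4.15, 3.43, 3.51 and 4.44, 53.4-fold lower. Hgf, a mesenchymal ligand for the epithelial receptor Met, was 10.1-fold lower, and Met differed by −0.01 ± 0.14 (SE; adjusted p = 0.983). Angpt2 was 10.4-fold lower and Angpt1 8.41-fold higher. Of 22 tested genes 7 were higher and 9 lower, with a median of −0.12. Insulin-like growth factor binding proteins differed more than their ligands. Igfbp2 was at −1.13, −1.09, −0.30 and −1.16 in ATII cells and 5.32, 5.80, 5.55 and 5.80 in fibroblasts, and Igfbp4 and Igfbp5 were 6.08-fold and 5.98-fold lower. Igfbp3 was 10.8-fold higher, and Igf1 1.59-fold lower. Of 11 tested genes of this family 2 were higher and 5 lower, with a median of −0.67.

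Genes for the making and carrying of retinoic acid were mostly higher in ATII cultures. Retinol is oxidised by Rdh10 and then by Aldh1a enzymes, and Cyp26 enzymes break retinoic acid down. Rdh10 was at 2.94, 2.37, 2.51 and 2.36 against −1.04, −1.20, −1.31 and −1.75, 14.6-fold higher (3.87 ± 0.19, SE; adjusted p = 7.41e-09). Aldh1a2 was 3.6-fold higher and Aldh1a1 5.62-fold lower. All 5 tested genes of uptake and binding passed as higher, with Stra6 at 11.8-fold, Rbp4 at 11.2-fold and Crabp2 at 5.65-fold. Cyp26a1 was 16.5-fold higher and Cyp26b1 10.6-fold lower. Of 16 tested genes 10 were higher and 4 lower, with a median of 1.60. With the mean over all probes of a gene in place of the brightest one the median was 1.01.

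**Figure D4:**
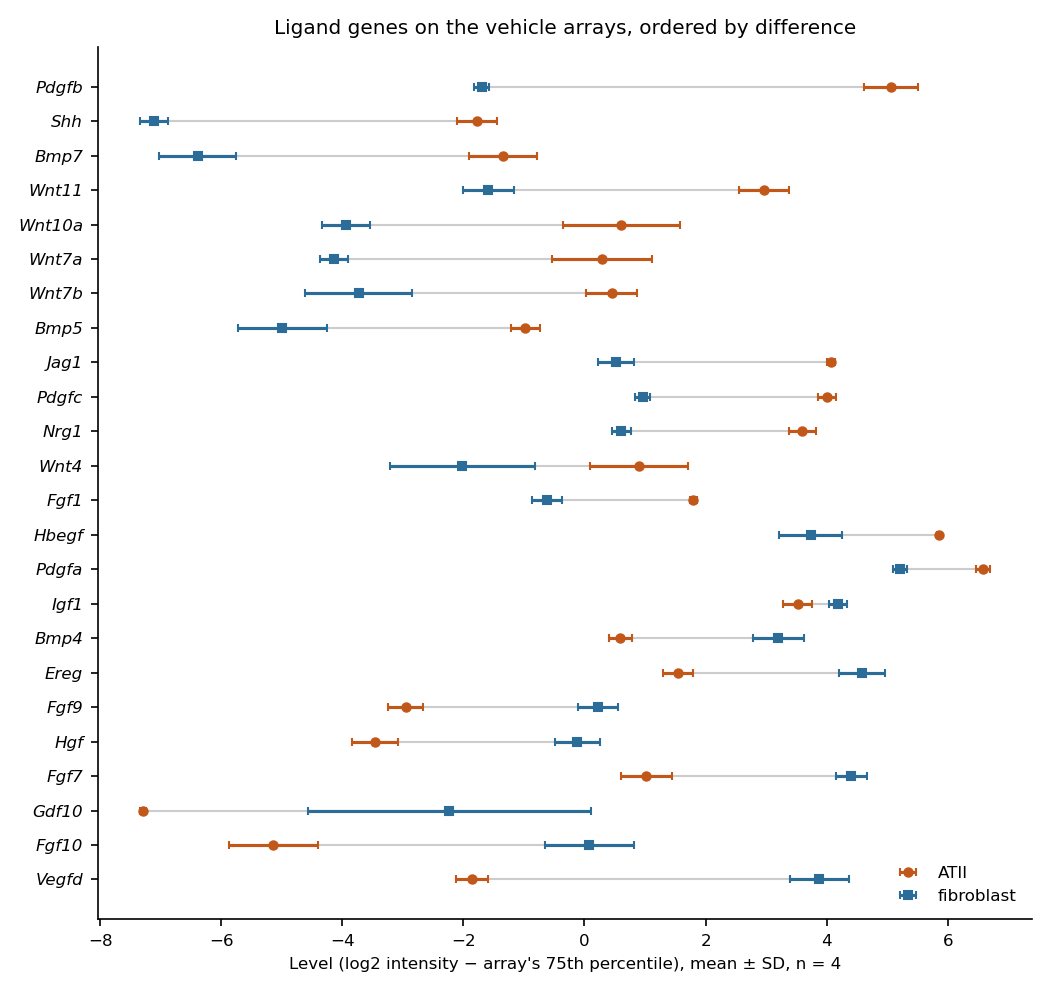
Mean level ± SD over 4 arrays in ATII cells and in fibroblasts for 24 ligand genes, ordered by their difference. Levels of different genes are not comparable, since each has its own probe. Pdgfb, Shh and the Wnt ligands lie higher in ATII cells and Fgf10, Vegfd and Hgf higher in fibroblasts.

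The basement membrane lists split by chain. Lama3 and Lamb3 encode chains of laminin-332, the anchor of epithelia. Lamb3 was at 4.11, 3.57, 3.74 and 3.20 in ATII cells and −3.83, −3.46, −3.81 and −3.54 in fibroblasts. It was 159-fold higher (7.31 ± 0.28, SE; adjusted p = 7.72e-10) and Lama3 4.34-fold. The mesenchymal chains Lama2 and Lama4 were 3.37-fold and 2.18-fold lower, as was Lamb2 (3.29-fold). Collagen IV chains showed the same split, with Col4a3 at least 9.4-fold and Col4a4 6.27-fold higher and Col4a2 1.73-fold lower. Nid2, a linker, was 8.34-fold lower. Of 24 tested genes 8 were higher and 7 lower, with a median of 0.24. Among integrins, Itgb6, the epithelial chain that releases TGF-β, was at 3.39, 2.67, 2.74 and 1.89 against −5.97, −4.38, −5.48 and −4.13. It was above background on 2 fibroblast arrays and 203-fold higher. Itgb4, a chain of the laminin-332 receptor, was 20.2-fold higher, Itgb3 16.5-fold, Itga2 9.1-fold and Itga3 7.69-fold. Itga4 (15.1-fold), Itga8 (10.3-fold) and the collagen receptor chain Itga1 (4.42-fold) were lower. Of 21 tested chains 8 were higher and 9 lower, with a median of 0.23.

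Most contractile genes were lower in ATII cultures, while a few abundant contractile and matrix genes stood close to their level in fibroblasts. Acta2, the smooth muscle actin gene that marks myofibroblasts, was at 8.62, 8.83, 8.89 and 8.88 in ATII cells and 9.18, 8.98, 9.31 and 9.49 in fibroblasts. The groups did not overlap, and the level was 1.35-fold lower in ATII cells (−0.44 ± 0.14, SE; adjusted p = 0.0298). Without ATII replicate 1 or 2 or fibroblast replicate 3 or 4 this call was lost, at differences between −0.35 and −0.44. Tagln, another contractile gene, was at 8.77, 9.20, 9.27 and 9.16 against 9.04, 9.07, 9.28 and 9.61, with overlapping values (−0.15 ± 0.16, SE; adjusted p = 0.544). Fn1, the gene of fibronectin, differed by −0.02 ± 0.15, Sparc by −0.13 ± 0.17 and Ccn2 by −0.05 ± 0.10 (SE), and none of them passed. Later genes of the smooth muscle programme were lower, with Lmod1 at 18.5-fold, Synpo2 at 8.96-fold, Mylk at 7.49-fold and Myh11 at 7.42-fold. Of 15 tested contractile genes 10 were lower and 2 higher, with a median of −0.56. With the replicate block, or without ATII replicate 2, 3 or 4 or fibroblast replicate 2, 1 was higher. Among matrix genes, Prelp was above background on fibroblast arrays only and at least 22.2-fold lower, Podn 14.4-fold, Fmod 11.2-fold and Efemp1 10.5-fold. Eln, the gene of elastin, was 5.41-fold higher in ATII cultures and Spon1 16.3-fold. Over the interstitial matrix 17 of 37 tested genes were lower and 8 higher, with a median of −0.40. Among proteases, Mmp9, a gelatinase gene, was at 1.46, 1.52, 1.64 and 1.78 against −6.75, −6.48, −7.09 and −6.48, in ATII cells only and at least 106-fold higher. Mmp15 was at least 27.2-fold and the serpin gene Serpinb5 at least 18.6-fold higher, while the stromelysin gene Mmp3 was 6.68-fold lower, Mmp8 5.7-fold and Timp2 2.95-fold. Of 24 tested genes 6 were higher and 10 lower, with a median of −0.36.

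Of 21 tested cytokine genes 12 were higher in ATII cultures and 4 lower. Il33 encodes an alarmin of alveolar epithelium. It was at −0.38, 0.07, 0.50 and 1.04 in ATII cells and −3.82, −4.08, −3.78 and −4.02 in fibroblasts, 18.8-fold higher (4.24 ± 0.38, SE; adjusted p = 1.6e-06). Il23a was at least 3.26-fold higher and the gp130 ligand gene Il11 4.7-fold. The granulocyte growth factor gene Csf3 was at least 7.35-fold higher. Tslp was 12.2-fold lower, and the macrophage and mast cell growth factor genes Csf1 and Kitl 3.07-fold and 4.16-fold. The median over the cytokine genes was 1.13. Among chemokines, Cxcl17 was 18.4-fold higher, Cxcl10 12-fold, Cxcl16 6.74-fold and Cxcl14 5.94-fold. The neutrophil chemokine gene Cxcl5 was 18.1-fold lower, Ccl4 10.2-fold and Cxcl1 6.31-fold. Of 21 tested chemokine genes 5 were higher and 10 lower, with a median of −0.53. Ccl4 was above background on 1 ATII array.

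Class II and complement genes differed by member. Cd74, the invariant chain of class II molecules that ATII cells are known to carry, was at 1.60, 1.15, 1.60 and 0.30 against −3.29, −3.32, −3.56 and −3.30. It was 23.1-fold higher (4.53 ± 0.38, SE; adjusted p = 9.86e-07), H2-Eb1 3.03-fold, H2-Ab1 2.41-fold and the class I gene H2-K1 3.56-fold. H2-DMa was 2.21-fold lower, as was Tap1 (2.07-fold), and the class II activator gene Ciita did not pass. Of 16 tested presentation genes 6 were higher and 2 lower, with a median of 0.13. In complement, C2 was 6.02-fold and Cfi 6.11-fold higher. Masp1 was 6.77-fold lower, Serping1 5.45-fold, and C3, at 4.54 ± 0.42 against 4.61 ± 0.29 (SD, n = 4), did not pass. With the 3 C1q genes counted, 9 of 20 tested members were lower and 3 higher, with a median of −0.68. Interferon-stimulated genes showed no common direction. Oasl2 was 4.62-fold higher, Usp18 4.42-fold and Oas1a 3.14-fold. Ifit3 was 5.52-fold lower, Ifit2 3.95-fold and Gbp2 3.55-fold. Of 20 tested genes 5 were higher and 6 lower, with a median of −0.63. The lower genes numbered 3 without ATII replicate 1 or fibroblast replicate 1, after quantile scaling, in the deposited table and with the replicate block.

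Few mitosis and housekeeping genes passed. Mki67, a gene of dividing cells, was at 4.30, 4.27, 3.86 and 3.99 in ATII cells and 4.32, 4.27, 4.02 and 4.72 in fibroblasts. These values overlapped (−0.22 ± 0.16, SE; adjusted p = 0.361). Of 15 tested mitosis genes only Kif11 passed, 1.47-fold lower, and it did not pass without ATII replicate 3 or 4 or fibroblast replicate 1, 3 or 4 (−0.40 to −0.60) or with the replicate block (−0.56, adjusted p = 0.111). Of 13 tested replication genes 1 was higher and 3 lower, and with the replicate block 0 were higher and 3 lower. Over all tested features 31.3% passed in either direction. Over the cell cycle 26 of 34 tested genes did not pass, with a median of −0.13. The exceptions with large differences were inhibitors, Cdkn2b (5.29-fold) and Cdkn1c (5.25-fold), both higher. Of 15 housekeeping genes 13 did not pass, 2 were lower, among them Pgk1, and the median was −0.11. Without fibroblast replicate 4, 1 of them was higher. Glycolysis genes had a median of −0.21, with 2 of 16 higher and 5 lower, or 3 lower with the replicate block and without ATII replicate 1 or 4 or fibroblast replicate 2, 3 or 4. Fatty acid genes had a median of −0.25, with 2 of 14 higher and 4 lower, or 1 higher with the replicate block and without ATII replicate 4. Plin2, the coat protein gene of lipid droplets, was 3.16-fold higher and the fatty acid carrier gene Fabp4 6.81-fold lower. Detoxification genes were divided. Gpx2, a glutathione peroxidase gene of epithelia, was 77.3-fold higher and Cyp4b1 at least 8.37-fold, while Nqo1 was 13.1-fold lower and Ephx1 6.9-fold. Of 15 tested genes 3 were higher and 7 lower, with a median of −0.55. Of 15 tested imprinted genes 3 were higher, led by Plagl1 (6.86-fold) and H19 (5.73-fold), and 7 lower, led by Zim1 (at least 14-fold) and Meg3 (3.47-fold), with a median of −0.45. The probes of Plagl1 ran from −0.08 to 2.79 and those of H19 from −0.57 to 2.52.

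The largest differences among genes above background on all 8 arrays included several not yet named. Of the 12 largest rises, Adgrg1, an adhesion receptor gene, was 96.1-fold higher (6.59 ± 0.33, SE; adjusted p = 6.49e-09). Of the 12 largest falls, Crct1 was 86.9-fold lower, the matrix gene Smoc1 63.2-fold, Itgbl1 62.7-fold and Ramp3, a partner of the calcitonin receptor family, 58.6-fold. Some of these 12, with larger falls than those named, are not reported here. Clec4d, a myeloid lectin gene, was 52.2-fold lower and Cemip, which degrades hyaluronan, 47.2-fold. S100a4, often used as a fibroblast marker, had a mean level of 2.93 ± 0.14 in ATII cells and 8.32 ± 0.25 in fibroblasts (SD, n = 4). The groups lay far apart, and the level was 42-fold lower (−5.39 ± 0.13, SE; adjusted p = 1.72e-11). Presence in one culture alone was also counted. There were 286 features above background on all 4 ATII arrays and on no fibroblast array, and 164 the other way round. The difference was at least 10-fold for 68 of the former and 17 of the latter.

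The comparison was repeated on the 7 BAPN arrays, none of which is a vehicle array. They may come from the same cultures as the vehicle arrays, which was not tested. Upk3b was at 1.46, −4.40 and 1.12 on the BAPN fibroblast arrays. On the vehicle fibroblast arrays of the same replicate numbers it was at 1.60, −4.34 and 1.51. The shares below are therefore not to be read as an independent replication. Of the 10173 features that passed in vehicle, 9482 (93.2%) had the same sign under BAPN and 6675 (65.6%) also passed there. In the BAPN arrays 9442 of all tested features passed (29.1%), of which the 6675 are 70.7%. Over all tested features the signs were the same for 65.9%. Cdh1 differed by 11.71 in the BAPN arrays, Sftpc by 7.27 and Krt8 by 8.20.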

How the data were processed

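RNA of 15 samples was hybridised to 1-colour Agilent mouse arrays, and the deposited scanner files give intensity per spot after background subtraction with Agilent Feature Extraction 10.7.3.1, per the submitters' processing notes and the file headers. The authors' deposited table of log2 values was used as an alternative. It is described as quantile normalized, with a median of 5.96 and the same sorted values (within 0.00322) in all 15 columns. Any further steps behind it are unknown. It gave 9922 calls and quantile scaling 9941, and these 2 alternatives are not to be read as separate checks. For the comparison, log2 intensities of an array were set against their own 75th percentile, taken without control probes, after leaving out 469 of 55681 probes whose spots were all outliers on some array. Probes were named from array accessions or symbols through RefSeq (27428 by accession, 3483 by symbol, 507 by an older symbol), and 24263 stayed unnamed. The brightest probe stood for a gene. Other probes of a gene could give a fold of another size or a smaller difference the other way.

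Features well above background on at least 3 of the 8 vehicle arrays were tested with limma 3.58.1 in R 4.3.3 (4 group means over 15 arrays, 11 residual degrees of freedom, two-sided, Benjamini-Hochberg over all features tested, threshold 0.05). "At least" folds compare the bright group's mean with a floor in the dim group. On every dim array this floor was the dimmest signal of any probe that stood well above background, or the probe's own signal if that was larger, and the floors were averaged. Fold changes of genes above background in part of a group are fitted values. The number of arrays limits the precision. The fit took vehicle and BAPN arrays of the same replicate number as independent, which was not tested. With the vehicle arrays alone 9936 features passed. The fit was tested on simulated data. Named genes were taken from the 4 markers, the 12 largest differences in each direction and the members of 40 lists. The largest differences were those among genes above background on all 8 arrays with at least 2-fold and no overlap. Of the lists, up to 4 members in each direction and members that define a role were taken. Some genes of these sets, among them some with larger differences than those named, are not reported here. The members and lists were chosen with earlier results of these data known, and genes may stand in several lists. Of 877 listed genes 3 had no probe. In the list of sex-linked transcripts, 1 of 5 genes was tested, and it did not pass.

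Replicate numbers are shared by the groups, and coincide with the slide. Deviations of same-numbered ATII and fibroblast arrays from their group means correlated at 0.238, 0.253, 0.330 and 0.340, and the replicate block was an alternative. Arrays of different number on one slide correlated as well, ATII replicate 1 with fibroblast replicate 3 at 0.316, 2 with 4 at 0.317 and 3 with 1 at 0.322, so number and slide cannot be told apart. One ATII BAPN array, titled as a replacement for another sample, was placed by its other labels and entered the fit.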

Additional observations from a re-analysis of the deposited data

Results flagged for a closer look

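Among 88 groups of 4 values, nearly all of genes given array by array, 7 held an array far from the other 3, by Dixon's gap test. Chance flags about 1 group in 20. Epcam on ATII replicate 1 was at 3.74, against 3.03 to 3.09 on the other ATII arrays. Wt1 on the same array was at 3.31, against 4.33 to 4.46, and Jag1 at 3.98, against 4.10 to 4.12. Igfbp2 on ATII replicate 3 was at −0.30, against −1.16 to −1.09. In fibroblasts, Lsr on replicate 1 was at −2.05, against −3.12 to −2.96. Bmp4 on fibroblast replicate 3 was at 2.58, against 3.31 to 3.46, and Cd74 there at −3.56, against −3.32 to −3.29. The low Wt1 value on fibroblast replicate 2 did not reach the critical value, since the other 3 fibroblast arrays were spread as well.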

How the results depend on the processing

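Against 10173 calls, separate fits gave between 8765 and 9842 when 1 vehicle array was left out, and between 8925 and 10253 under quantile scaling, normexp, the deposited table, other filters, the vehicle arrays alone, the slide block, the correction for spot position and the mean over probes. The fit with the replicate number as a block (paired numbers) gave 9841, and of the named genes it changed the call of Kif11 alone. The count was 5122 on slide 2 alone, 4449 with a minimum of 2-fold, and 4595 in the upper row of the slides, an alternative chosen after seeing the data. Signs turned for Ptch1 (0.52) and Smo (−0.39) with the mean over probes. Of 259 genes named in the report and past the threshold, 254 kept their direction and call under the settings with both slides, both rows and no minimum fold, and without each array in turn, with Acta2, Dlk2, Gli1, Kif11 and Zeb2 as the exceptions. With fewer arrays, 20 of the calls were lost on slide 1 and 54 on slide 2, and 24 differences were under 2-fold.

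List medians moved by more than the spread between replicates in 58 of 840 cases, and the cause was not tested. With normexp they were 0.32 for surfactant, 0.88 for epithelial factors, 1.73 for keratins, 1.25 for tight junctions, 1.38 for adherens junctions, 0.83 for mucins, 0.08 for EGF, 0.23 for Wnt, 0.11 for Notch, 0.08 for basement membrane, 0.60 for type I, 0.42 for airway and 0.60 for cytokine genes. Among genes above background on all 8 arrays, which leaves out those of one culture alone, they were 0.74 for epithelial factors, 1.90 for keratins, 1.46 for adherens junctions, 0.00 for mucins, 0.01 for Hedgehog, −0.12 for Notch, −0.02 for basement membrane, 0.16 for type I, 0.23 for airway and −1.45 for detoxification genes. Quantile scaling and the deposited table both gave −0.15 for Fgf and −0.02 for BMP and TGF-β, and gave 0.34 and 0.33 for EGF and 1.34 and 1.33 for cytokines, and quantile scaling gave 0.52 for Wnt. The mean over probes gave 1.01 for retinoid and −1.05 for detoxification genes. Slide 1 gave 2.48 for mucins, −0.17 for Fgf, 0.39 for Notch and 0.34 for antigen presentation, and slide 2 gave 0.35 for surfactant and 0.32 for Notch. The upper row gave 0.21 for Hox, 2.75 for keratins, 2.74 for tight junctions, 0.93 for apical transport, 0.05 for EGF, −0.01 for BMP and TGF-β, 1.77 for airway, 0.29 for endothelial, −0.73 for chemokine, 1.43 for cytokine, −0.42 for glycolysis and −0.11 for fatty acid genes. When 1 array was left out, medians ran from 0.34 to 0.57 for surfactant, −0.14 to −0.02 for BMP and TGF-β, 0.27 to 0.53 for Notch, −0.45 to −0.29 for interstitial matrix and 1.11 to 1.33 for cytokine genes.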

Other observations

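Xist, the RNA that coats the inactive X chromosome in female cells, was tested as one of a list of sex-linked transcripts. It was at −0.25, 0.05, 0.02 and −0.48 in ATII cells and at 0.85, 0.58, 0.67 and −0.56 in fibroblasts, above background on all 8 arrays, with a difference of −0.55 ± 0.25 (SE; limma, adjusted p = 0.126) that did not pass. Without fibroblast replicate 4 the difference was −0.86 and passed, as it did on slide 1 (−0.88) and with the mean over its probes (−0.70). The 4 Y-linked genes of the list, Ddx3y, Kdm5d, Eif2s3y and Uty, were not well above background on enough arrays to be tested.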
